A study of Mus musculus with 6 samples.

Results

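The Clca genes (chloride channel accessory) were examined in RNA-seq of PDVC57, an established line of mouse squamous carcinoma cells of keratinocyte origin. The family holds 7 protein-coding genes of the 55385 mouse genes in the count table: Clca1, Clca2, Clca3a1, Clca3a2, Clca3b, Clca4a and Clca4b. They were chosen by family name after Clca3b had been selected on its rise between the groups of these same libraries, so the members' values in the groups are given as a description, with no test. There were 3 libraries of PDVC57 cells with a Sox2 knockout (KO) and 3 of PDVC57 cells with Sox2 overexpression (OE), and no library of unmodified cells was analysed here. Sox2 is a stem cell transcription factor also found in squamous tumours. The design text describes Sox2-low and Sox2-high carcinoma cells taken out of grafted tumours for bulk RNA-seq. The promoter that drives Sox2, the edited position, and the number of clones, hosts or tumours behind a library are not given in the sources used here. The labels do not say that replicates came from separate cultures or tumours, so the spread between them may be technical, and p-values measure only that spread.

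CLCA proteins were first taken for chloride channels. They are now known as secreted or membrane-bound proteins with a metalloprotease domain that cuts the protein itself, and CLCA1 keeps the calcium-activated chloride channel Ano1 (TMEM16A) at the cell surface. Clca1 is a product of mucus-secreting goblet cells. Clca2 is a membrane protein of stratified epithelia whose human counterpart is a p53 target. Clca3a1 is known from lymphatic endothelium, and the Clca4 genes from the intestine. The Clca3 genes are an expanded branch in the mouse, where the human counterpart is a pseudogene.

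The members lie side by side on the minus strand of chromosome 3, within 369.8 kb (chr3:144729677-145099443, GRCm38, GENCODE M21), in the order Clca3a1, Clca3a2, Clca3b, Clca4b, Clca4a, Clca1 and Clca2. Clca3b (ENSMUSG00000037033) spans chr3:144822623-144849357 in 14 exons, and its nearest member is Clca3a2 (chr3:144796559-144819494). The coding sequences of Clca3a1 and Clca3a2 were 97.1% identical and those of Clca4a and Clca4b 96.0%. Clca3b was 86.4% identical to Clca3a1 and 86.6% to Clca3a2, while the other pairs of members were 53.1% to 62.1% identical. The Clca3 sequences are shown because a read from a stretch that these genes share cannot be assigned by sequence alone. The first 92 coding bases, counted from the start codon, are the longest run common to Clca3a1 (chr3:144760631-144760722), Clca3a2 (chr3:144819378-144819469) and Clca3b (chr3:144849194-144849285).
Shared by the Clca3 genes: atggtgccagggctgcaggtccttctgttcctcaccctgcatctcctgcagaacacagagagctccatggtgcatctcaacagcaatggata

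In contrast, 1 window of 60 coding bases held 25 positions at which Clca3b differed from both relatives, the most of any such window. Capitals mark every position at which the 3 genes are not all alike. The windows lie on the minus strand at chr3:144751977-144752036 in Clca3a1, chr3:144810689-144810748 in Clca3a2 and chr3:144839071-144839130 in Clca3b.
Clca3a1: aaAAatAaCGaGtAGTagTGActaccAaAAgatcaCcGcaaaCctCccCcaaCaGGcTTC
Clca3a2: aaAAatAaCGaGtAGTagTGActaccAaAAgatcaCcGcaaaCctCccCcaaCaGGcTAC
Clca3b: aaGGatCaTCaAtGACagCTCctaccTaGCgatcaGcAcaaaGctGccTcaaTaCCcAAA

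Clca3b also carried a stretch found in no other member. Its last coding exon contains a unit of 27 bases repeated without a mismatch over 426 bases (chr3:144822843-144823268, coding bases 2644 to 3069), which makes 15 whole copies and part of another. Its coding sequence has 3135 bases, against 2709 in Clca3a1 and in Clca3a2. The unit is shown because it sets Clca3b transcripts apart from those of its relatives.
Clca3b repeat unit: cccagcacccctcctggtctgagtacc

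How far transcripts of the members can be told apart was counted in distinct words of 31 bases over the transcripts of GENCODE M21. Clca1 and Clca2 shared no word with another gene. Of the Clca3b words, 15.1% occurred in another member and 84.9% in no other gene. The share found in no other gene was 59.4% for Clca3a1 and 59.4% for Clca3a2, which had 35.0% and 34.4% of their words in common with each other. Clca4b (56.5%) and Clca4a (44.4%) had the lowest such shares of the members.

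**Figure D1:**
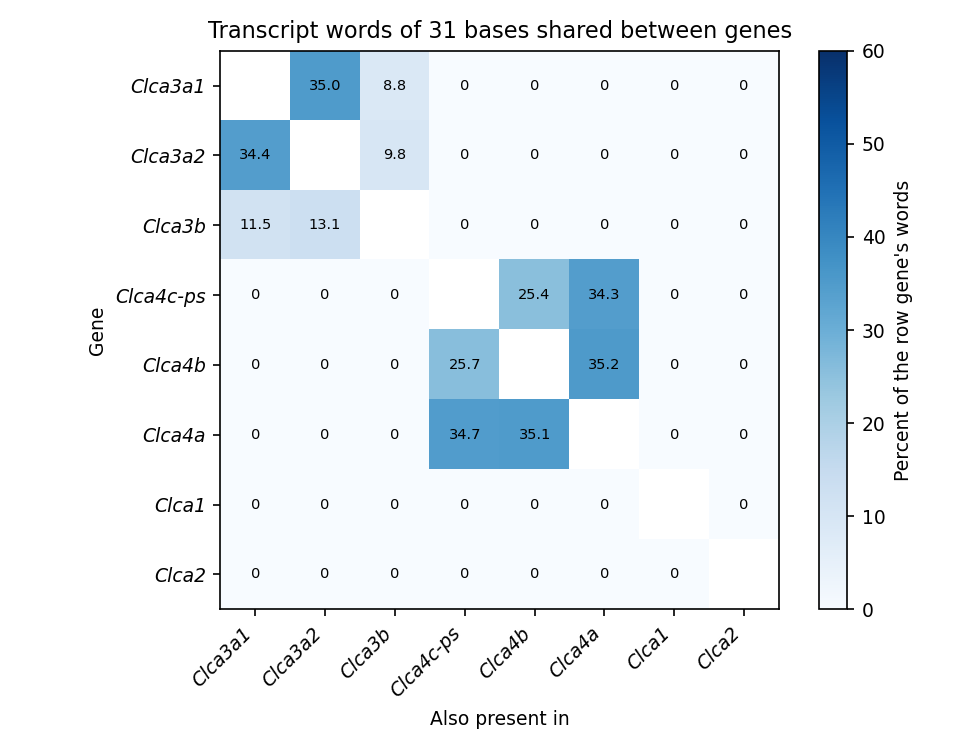
Percent of the distinct 31-base words in the transcripts of each gene (row) that also occur in each other gene (column). The Clca3 genes and the Clca4 genes, with the pseudogene Clca4c-ps, form 2 separate blocks, and Clca1 and Clca2 share 0% with the rest.

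Library totals lay between 31247976 and 38543221 counts. Sox2 had 49, 34 and 25 counts in KO replicates 1, 2 and 3, and 2566, 3790 and 4095 counts in OE replicates 1, 2 and 3. Of 18504 tested genes, 31.6% passed edgeR's quasi-likelihood test at an adjusted p of 0.05, 13.6% higher and 18.0% lower with overexpression, and the groups did not overlap for 50.9%. Marker genes of several cell types moved with the groups. All 10 fibroblast markers fell with overexpression, and their summed level was 53173 to 81041 CPM (the usual depth-scaled unit for counts, here with TMM scaling) in KO libraries and 246 to 388 CPM in OE libraries. Of 7 epithelial markers 5 rose, with sums of 3727 to 5608 CPM in KO and 8097 to 12412 CPM in OE libraries. Of 6 tested blood endothelium markers 5 fell (summed level 31.4 to 105 CPM in KO, 12.9 to 19.6 CPM in OE libraries). Tek, the one not called, made up most of the OE sums (16.9, 9.34 and 15.1 CPM in OE replicates 1, 2 and 3). Of 6 tested white blood cell markers 3 fell (summed level 25.5 to 119 CPM in KO, 14.97 to 33.4 CPM in OE libraries). The white blood cell marker Ptprc varied within the KO group, with 363, 654 and 3215 counts in replicates 1, 2 and 3, and had 14 to 20 counts in OE libraries. The tested white blood cell markers Csf1r, Cd68 and Ly6g were not called, with log2 fold changes above 0 (0.86, 0.49 and 1.14). Of 5 markers of adventitial fibroblasts and adipose progenitors 1 rose and 4 fell, with sums of 1063 to 2617 CPM in KO and 987 to 1654 CPM in OE libraries. Ly6a, the one that rose, made up most of the OE sums (1522, 1176 and 878 CPM in OE replicates 1, 2 and 3). The mean went from 802 to 2.92 CPM for Pi16, from 277 to 1.45 CPM for Cd34 and from 72.8 to 0.0744 CPM for Dpp4. Sema3c went from 187 to 101 CPM. The labels name only PDVC57 cells, and whether these transcripts came from other cells or from the line itself was not tested. In bulk RNA, fewer cells of a type and less RNA per cell cannot be told apart. The part of any such cells in the Clca values was not tested, beyond a scaling to the epithelial markers that is given with the fold changes.

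Clca3b was the most abundant Clca transcript of the OE libraries. It had 97, 33 and 60 counts in KO replicates 1, 2 and 3 (2.84, 1.09 and 1.64 CPM), and 14601, 3965 and 3278 counts in OE replicates 1, 2 and 3 (446, 134 and 82.9 CPM). Every OE library lay above every KO library, and OE replicate 1 stood far above the other OE libraries. Group means were 1.86 ± 0.896 CPM in KO and 221 ± 196 CPM in OE libraries (SD, n = 3 each). Overexpression over knockout gave a log2 fold change of 6.88 ± 0.75 (standard error), the value that chose the family. Without OE replicate 1, which decides much of the mean, the other OE libraries averaged 109 CPM, at a log2 fold change of 5.88. OE replicate 1 held the lowest Sox2 level of the OE libraries (78.3 CPM, against 128 and 104 CPM in replicates 2 and 3), so Clca3b and Sox2 did not order the OE libraries alike.

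Clca2, the stratified-epithelium member, was the second most abundant in the OE libraries. Its counts were 65, 68 and 41 in KO replicates 1, 2 and 3 (1.91, 2.25 and 1.12 CPM), and 631, 299 and 894 in OE replicates 1, 2 and 3 (19.3, 10.1 and 22.6 CPM). The groups did not overlap, and OE replicate 3, not replicate 1, was highest. The mean was 1.76 ± 0.576 CPM with knockout and 17.3 ± 6.47 CPM with overexpression (SD, n = 3 each). Its log2 fold change of 3.30 ± 0.38 (standard error) lay between 3.07 and 3.60 when each library was left out in turn. Clca2 had no word of 31 bases in common with another gene of GENCODE M21, while the annotation behind the counts is not given in the sources used here.

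Clca3a1 and Clca3a2, the nearest relatives of Clca3b, were low in 5 of the 6 libraries and stood out in OE replicate 1. Clca3a1 had 50, 57 and 67 counts in KO replicates 1, 2 and 3 (1.47, 1.88 and 1.84 CPM), and 473, 79 and 100 counts in OE replicates 1, 2 and 3 (14.4, 2.67 and 2.53 CPM). Its groups did not overlap, but OE replicates 2 and 3 lay close above the KO libraries. The mean was 1.73 ± 0.229 CPM with knockout and 6.55 ± 6.83 CPM with overexpression (SD, n = 3 each). This came to a log2 fold change of 1.92 ± 0.66 (standard error), or 0.61 without OE replicate 1.

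Clca3a2 had 23, 80 and 26 counts in KO replicates 1, 2 and 3 (0.674, 2.65 and 0.713 CPM), and 329, 41 and 52 counts in OE replicates 1, 2 and 3 (10.04, 1.39 and 1.32 CPM). Its groups overlapped, since KO replicate 2 exceeded OE replicates 2 and 3. The mean was 1.34 ± 1.13 CPM with knockout and 4.25 ± 5.02 CPM with overexpression (SD, n = 3 each). The difference on the log2 scale was 1.67 ± 0.88 (standard error), and each group had a library that decided it. It was 0.035 without OE replicate 1 and 2.61 without KO replicate 2.

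OE replicate 1, where both relatives stood out, was also the library with the most Clca3b. The Clca3a1 count was 3.24%, 1.99% and 3.05% of the Clca3b count in OE replicates 1, 2 and 3, and the Clca3a2 count 2.25%, 1.03% and 1.59%. In KO replicates 1, 2 and 3 the same ratios were 51.5%, 173% and 112% for Clca3a1, and 23.7%, 242% and 43.3% for Clca3a2. The KO ratios rest on small counts (23 to 80 for the relatives, 33 to 97 for Clca3b), and Clca3b is the denominator of every ratio. The part of reads shared with Clca3b in the counts of Clca3a1 and Clca3a2 was not tested. With the 3 genes summed, which such sharing leaves unchanged, the totals were 170, 170 and 153 counts in KO replicates 1, 2 and 3, and 15403, 4085 and 3430 in OE replicates 1, 2 and 3. These totals are raw counts, not scaled to the depth of the libraries. The sum had a log2 fold change of 5.55 ± 0.65 (standard error).

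Few counts belonged to the other annotated genes of this stretch of the chromosome, the highest being 28 for the noncoding Gm35066 in OE replicate 1. The processed pseudogenes Gm17743 and Gm16215 had 22 and 14 counts in OE replicate 1 and at most 7 in any other library. The antisense genes Gm34866 and Gm43240, whose exons overlap those of Clca3a1 and Clca3a2, had at most 7 counts in a library. Strand is not stated for the counting, so reads of such overlaps cannot be assigned to 1 gene. Clca3b, Clca2, Clca1 and Clca4b had no exon that overlaps another gene.

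Lymphatic endothelium, where Clca3a1 is known, was followed by its markers. Of 6 lymphatic markers 3 were tested, 2 of them fell with overexpression, and Mmrn1 and Ccl21a had 0 counts in the 3 OE libraries. The other tested marker, Lyve1, had 0.570 ± 0.202 CPM with knockout and 0.827 ± 0.385 CPM with overexpression (SD, n = 3 each) and was not called (edgeR adjusted p = 0.449). The summed level was 2.30 to 31.04 CPM in KO libraries and 0.854 to 1.56 CPM in OE libraries. Ccl21a made up most of the sum in KO replicates 1 and 2 (20.3 and 15.5 CPM) and had 0 counts in KO replicate 3. The part of any lymphatic cells in the Clca3a1 counts was not tested.

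Clca1, the goblet cell member, was near the lower end of what was counted. It had 16, 4 and 28 counts in KO replicates 1, 2 and 3 (0.469, 0.132 and 0.767 CPM), and 65, 33 and 49 counts in OE replicates 1, 2 and 3 (1.98, 1.12 and 1.24 CPM). The groups did not overlap, and OE replicate 1 was highest. On the log2 scale the groups differed by 1.64 ± 0.58 (standard error), and by 1.23 to 2.23 when a library was left out. Goblet cell markers were low and lay higher in KO libraries 2 and 3 through Fcgbp. Of 5 markers 2 were tested (Muc2 and Fcgbp) and both fell with overexpression, though the Fcgbp call was lost in 9 of 13 alternatives and the Muc2 call in 3. Tff3 had 0 counts in the 6 libraries, and the summed level was 0.733 to 14.1 CPM in KO and 0.683 to 1.25 CPM in OE libraries.

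Clca4a and Clca4b, the intestinal members, had only a few counts and did not pass the filter on low counts, so no fold is given. Clca4a had 0, 0 and 6 counts in KO replicates 1, 2 and 3, and 5, 5 and 7 in OE replicates 1, 2 and 3. Clca4b had 0 counts in the 3 KO libraries, and 1, 1 and 2 in OE replicates 1, 2 and 3. All Clca4b values are within the 3 counts that a count of 0 allows, which is 0.0759 to 0.101 CPM by library and covers counting error only. Clca4c-ps, which shares words with both, had 0 to 4 counts. The antisense gene Gm16233, whose exons overlap Clca4a, had 1, 0 and 11 counts in KO replicates 1, 2 and 3, and 4, 5 and 5 in OE replicates 1, 2 and 3, about as many as Clca4a itself.

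**Figure D2:**
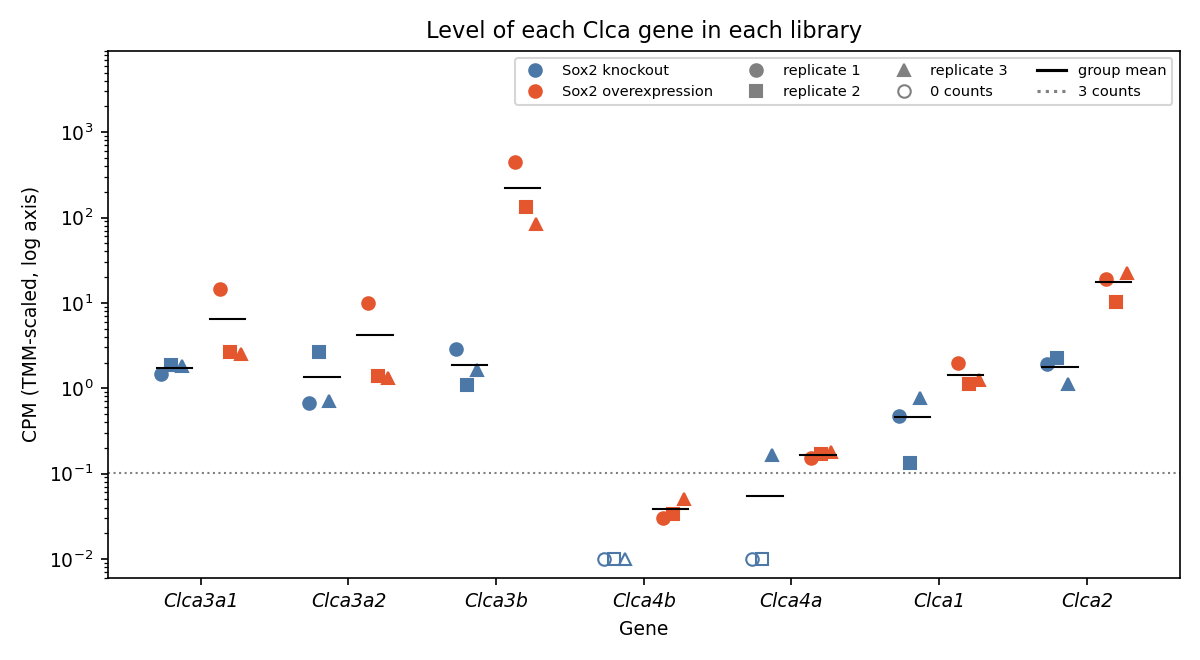
Level of each member in each library, in TMM-scaled CPM on a log axis, in the order of the genes along the chromosome. Black lines are group means and open symbols at the bottom are 0 counts. The dotted line is 3 counts in the library with the smallest TMM-scaled total. Clca3b reached 82.9 to 446 CPM and Clca2 10.1 to 22.6 CPM with overexpression, and OE replicate 1 stood apart for Clca3b, Clca3a1 and Clca3a2.

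Of the 7 members 5 were tested and all 5 had a log2 fold change above 0. The call across all genes took in 2 of them, Clca3b and Clca2, beside 31.6% of all tested genes, and the groups did not overlap for 4 of the 5, beside 50.9%. With no filter all 7 members were fitted and 5 called, beside 6648 of 36483 genes. DESeq2 called 4 members (6403 of 18504 genes) and the replicate block 3 (5593 of 18504 genes). With 1 library left out, 3 members were called without KO replicate 3 (4527 of 19059 genes), OE replicate 2 (5821 of 19753) or OE replicate 3 (4782 of 19527). Without any other single library 2 were called (4230 to 5596 of 19275 to 19647 genes). The family was chosen through this comparison, so nothing is read from these counts. With libraries scaled to the epithelial markers in place of TMM, the median over all tested genes, in log2 fold change, went from -0.016 to -1.11, and the calls from 43.1% higher and 56.9% lower to 2.58% higher and 97.4% lower. On that scale the log2 fold changes were 5.87 for Clca3b, 2.25 for Clca2, 0.90 for Clca3a1, 0.67 for Clca3a2 and 0.56 for Clca1, each still above 0.

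Levels can be compared between the genes per kilobase of their longest transcript. With overexpression the mean level was 65.7 CPM per kb for Clca3b, 4.35 for Clca2, 1.72 for Clca3a1, 1.16 for Clca3a2, 0.396 for Clca1, 0.0553 for Clca4a and 0.0128 for Clca4b. The libraries of Clca3b lay above all those of Clca2. Those of Clca2, Clca3a1, Clca3a2 and Clca1 overlapped, each with its neighbour in this order. With knockout, Clca3b (0.553 CPM per kb), Clca3a1 (0.455), Clca2 (0.441), Clca3a2 (0.368) and Clca1 (0.125) overlapped in the same way, and Clca4a had 0.0182.

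The make-up of the family's counts differed between the groups in the same way as these levels, and is a description for the same reason. Clca3b made up 38.6%, 13.6% and 26.3% of all Clca counts in KO replicates 1, 2 and 3, and 90.7%, 89.6% and 74.8% in OE replicates 1, 2 and 3. Clca2 made up 25.9%, 28.1% and 18.0% in the KO libraries and 3.92%, 6.76% and 20.4% in the OE libraries, in the same order. The whole family had 251, 242 and 228 counts in the KO libraries, and 16105, 4423 and 4382 in the OE libraries. OE replicates 2 and 3 thus had nearly the same family total, with more of it Clca2 in replicate 3.

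**Figure D3:**
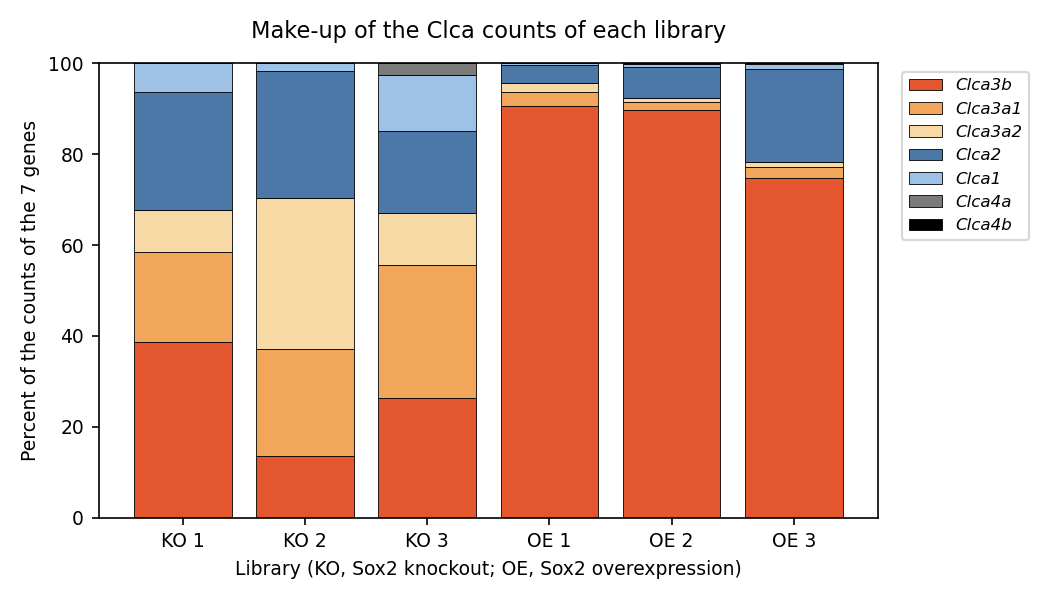
Percent of the counts of the 7 Clca genes that belong to each gene, by library. No gene held over 38.6% in a KO library, and Clca3b held 74.8% to 90.7% in the OE libraries.

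Promoter windows of 4 members, Clca2, Clca3a1, Clca3b and Clca4b, were searched for words bound by Sox factors and their partners (RefSeq, GRCm38.p6, 250 bases before to 50 after the start, both strands). The octamer ATGCAAAT is the element bound by POU factors, which pair with Sox2 on many sites. It lay 76 bases before the start in Clca3b, and was found in 1.74% of 32851 promoter windows. The Sox-type words ACAATG and ACAAAG were found in 12.6% and 18.7% of windows. The Clca3b window held ACAAAG, and that of Clca2 held both. The windows of Clca3a1 and Clca4b held none of these words. These are matches of letters and do not show binding, and the words were chosen after the sequences had been seen.

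The protein-coding neighbours of the cluster did not share the Clca3b pattern. Of 6 tested genes, 3 on each side, 0 rose and 1 fell by edgeR's quasi-likelihood test, and 0 rose at an unadjusted p under 0.05 or by DESeq2. By edgeR's test 13.6% of all tested genes rose and 18.0% fell. Without OE replicate 2, Odf2l was called higher (edgeR adjusted p = 0.0277), and scaled to epithelial markers all 6 were called lower. Sh3glb1, a membrane-curvature protein 9.34 kb from Clca3a1, had a log2 fold change of 0.18 (edgeR adjusted p = 0.407), and Odf2l, 19.1 kb from Clca2, one of 0.30 (edgeR adjusted p = 0.281). Col24a1, a fibrillar collagen gene 193 kb beyond Clca2, went from 34.5 ± 6.31 CPM to 0.150 ± 0.178 CPM (SD, n = 3 each; edgeR adjusted p = 1.25e-05). Its counts were 1400, 1026 and 1038 in KO replicates 1, 2 and 3, and 2, 1 and 14 in OE replicates 1, 2 and 3, beside the fall of the fibroblast markers.

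**Figure D4:**
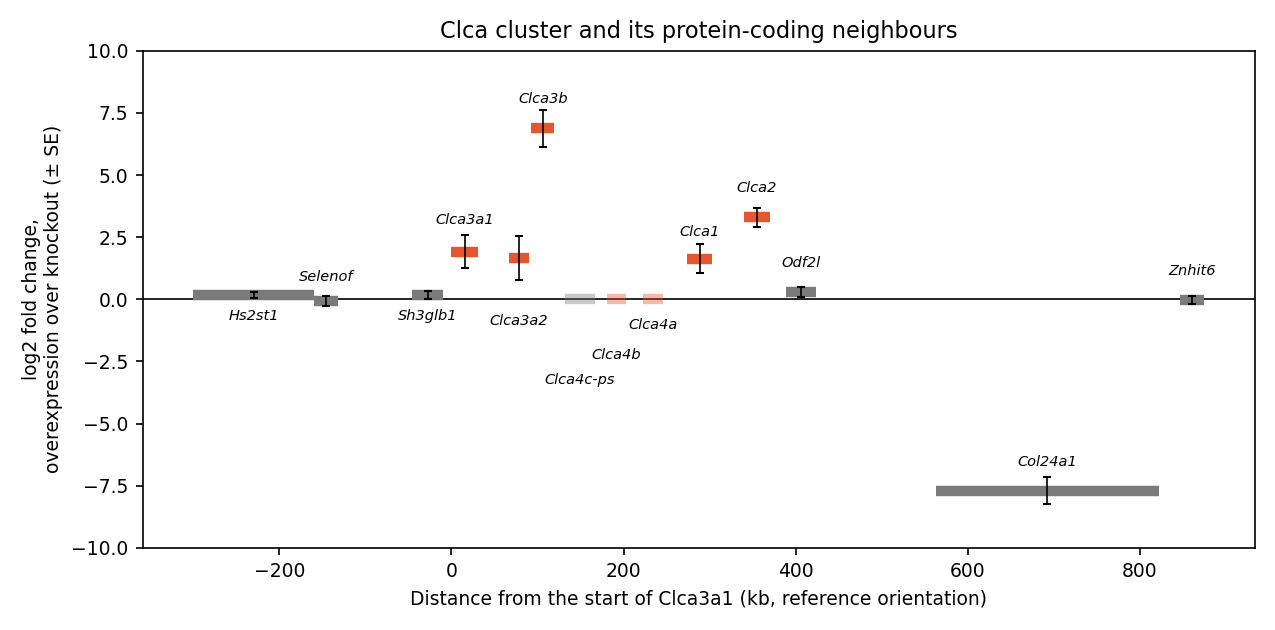
Log2 fold change (overexpression over knockout, with its standard error) of the Clca genes and their nearest tested neighbours, against the distance from the start of the cluster in kb; pale symbols at 0 are genes that were not tested. Clca3b stands at 6.88, between Clca3a2 at 1.67 and the untested Clca4 genes, and Col24a1 at -7.69.

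Outside the family, the 5 genes whose levels ran most like Clca3b over the 6 libraries were named by a measure of likeness. It was the root mean square difference of log2 CPM (prior count 2), centred on the mean over libraries, and is a description because all such genes share the difference between the groups. The closest were Pdzk1ip1 (0.535), Cxcl17 (0.655), Cnfn (0.693), Crnn (0.695) and Sprr3 (0.741). Cxcl17, Cnfn, Crnn and Sprr3 had 0 to 4 counts in KO libraries, so their likeness depends largely on the prior count. Sprr3 had a fitted log2 fold change of 11.07, against 6.88 for Clca3b. Pdzk1ip1, a small membrane protein, had 0.410, 0.0992 and 0.439 CPM in KO replicates 1, 2 and 3, and 57.04, 34.1 and 27.1 CPM in OE replicates 1, 2 and 3. Like Clca3b, it was highest in OE replicate 1. Cxcl17, a chemokine of mucosal surfaces, had 3, 0 and 0 counts in the KO libraries and 213, 118 and 65 in the OE libraries, in the same order. Cnfn, a cornified envelope protein, had 4, 0 and 3 counts with knockout and 406, 158 and 403 with overexpression. Crnn, which encodes cornulin of the oesophageal epithelium, had 1, 0 and 0 counts and 162, 72 and 79 counts. The other members ran less like Clca3b: the difference was 1.92 for Clca2, 2.52 for Clca1, 2.65 for Clca3a1 and 2.86 for Clca3a2, and 0.805%, 2.48%, 3.23% and 5.95% of tested genes were closer.

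Basal and suprabasal genes of stratified squamous epithelium, the setting in which Clca2 is known, were mostly higher with overexpression. Of 35 listed genes 30 were tested, and 19 rose and 1 fell, while 10 were not called. The share of these genes called was 66.7%, beside 31.6% of all tested genes. Their median log2 fold change was 1.67, against -0.016 over all tested genes. Of the 10 not called, Krt10 and Krt6b had log2 fold changes below 0 (-1.22 and -0.63) and the rest above 0. Among genes not tested, Krt1 had 1, 91 and 589 counts in KO replicates 1, 2 and 3 and 6, 0 and 3 in OE replicates. Dsg1a had 0, 66 and 28 counts in KO and 1, 0 and 9 in OE replicates, in the same order. Crct1 had 0 counts in the KO libraries and 6, 2 and 15 in the OE libraries. Krt4, a keratin of mucosal epithelium, had 18, 0 and 3 counts in KO libraries and 141, 116 and 83.0 CPM in OE replicates 1, 2 and 3 (log2 fold change 9.07, edgeR adjusted p = 1.58e-05). Sprr3, an envelope precursor, had 0 counts in the KO libraries and 337, 168 and 310 in the OE libraries, at least 80.0-fold higher against a floor of 3 counts per library. Sbsn, a suprabasal protein, was the gene that fell (log2 fold change -1.16, edgeR adjusted p = 0.0421), a call lost without KO replicate 2 (0.0744), KO replicate 3 (0.141), OE replicate 2 (0.145) or OE replicate 3 (0.101).

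Mucous and secretory genes are the setting in which Clca1 is known. Of 22 listed genes 10 were tested, and 6 rose, 2 fell and 2 were not called, with a median log2 fold change of 2.42. The share called was 80%, beside 31.6% of all tested genes. The 6 that rose were the membrane mucins Muc1, Muc4, Muc16 and Muc20, the secreted peptide Tff2 and the mucin glycosyltransferase Gcnt3. The 12 that were not tested included Muc5ac, Muc5b, Agr2, Spdef, Foxa3 and Tff3, genes that mark mucus-secreting cells. Muc4, a membrane mucin, had 0.997, 0.562 and 0.274 CPM in KO replicates 1, 2 and 3, and 85.9, 18.0 and 7.18 CPM in OE replicates 1, 2 and 3 (edgeR adjusted p = 0.00214). Its highest library was OE replicate 1, as for Clca3b. Muc20, another membrane mucin, had 27.6, 6.73 and 0.784 CPM in OE replicates 1, 2 and 3, so that its lowest OE library lay within the KO range of 0.301 to 1.06 CPM. Its edgeR adjusted p was 0.0211, and it was 0.0713 without KO replicate 2, 0.0567 without KO replicate 3 and 0.0561 without OE replicate 1. Tff2, a secreted trefoil peptide, had 0 counts in the KO libraries and 118, 106 and 51 in OE replicates 1, 2 and 3, at least 28.5-fold higher against the floor of 3 counts per library. Muc2, the main gel-forming mucin of the intestine, fell (log2 fold change -2.14, edgeR adjusted p = 0.0128), a call lost without KO replicate 2 (0.0586), OE replicate 2 (0.0517) or OE replicate 3 (0.0539). Fcgbp, a mucus protein, had 4, 391 and 313 counts in the KO libraries and 33, 17 and 13 in the OE libraries, and its edgeR adjusted p of 0.0498 rose above 0.05 in 9 of 13 alternatives.

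Chloride channel genes, which include the channel that CLCA1 acts on, showed no common direction. Of 29 listed genes 23 were tested, and 3 rose, 5 fell and 15 were not called, with a median log2 fold change of -0.12. The share called was 34.8%, beside 31.6% of all tested genes. Ano1 had 170, 187 and 106 CPM in KO replicates 1, 2 and 3, and 140, 258 and 194 CPM in OE replicates 1, 2 and 3. Its groups overlapped, and the log2 fold change of 0.35 had an edgeR adjusted p of 0.357. The genes that rose were Ano9, of the anoctamin family (log2 fold change 1.61, edgeR adjusted p = 0.0102), and the volume-regulated channel subunits Lrrc8e (1.12, adjusted p = 0.00763) and Lrrc8a (0.83, adjusted p = 0.00623). Scaled to epithelial markers they had log2 fold changes of 0.53, 0.033 and -0.29, none of them called. Among those that fell, Ttyh2 went from 21.3 to 0.280 CPM and Best1, a bestrophin, from 1.93 to 0.148 CPM (edgeR adjusted p = 1.93e-06 and 0.00176). Ano3 had 20, 86 and 87 counts in KO replicates 1, 2 and 3 and 0, 0 and 1 in OE replicates 1, 2 and 3 (edgeR adjusted p = 0.000762).

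The p53 targets, listed because human CLCA2 is one, also moved in both directions. Of 19 genes 18 were tested, and 3 rose, 2 fell and 13 were not called, with a median log2 fold change of -0.045. The share called was 27.8%, beside 31.6% of all tested genes. Cdkn1a and Mdm2, the best known targets, had log2 fold changes of 0.35 and -0.42 (edgeR adjusted p = 0.108 and 0.231). Plk2, a kinase, and Perp, a desmosome protein of stratified epithelia that p63 also controls, rose by 1.12 and 1.01 on the log2 scale (edgeR adjusted p = 0.000756 and 0.00814), and Fas, a death receptor, fell by 2.02 (edgeR adjusted p = 0.00671). Scaled to epithelial markers, Plk2 and Perp had log2 fold changes of 0.025 and -0.068. Phlda3, a pleckstrin-domain protein, rose by 0.68 (edgeR adjusted p = 0.0340) and Ccng1, a cyclin, fell by 0.70 (edgeR adjusted p = 0.0386), and each call was lost without any of 4 single libraries, with adjusted p up to 0.111 and 0.115. Clca2 itself had a log2 fold change of 3.30, and a part of p53 in its level was not tested.

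**Figure D5:**
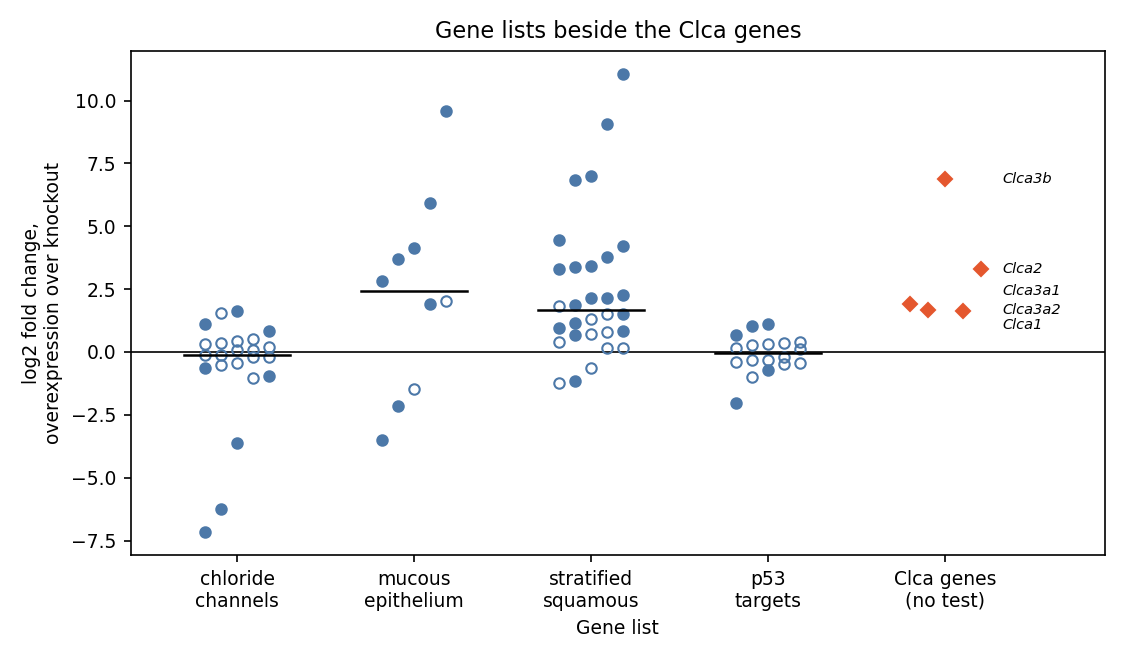
Log2 fold change (overexpression over knockout) of each tested gene in the squamous, mucous, chloride channel and p53 target lists; filled points have an adjusted p under 0.05, black lines are list medians and diamonds are Clca genes, which have no test. The squamous and mucous lists have medians of 1.67 and 2.42, and the chloride channel and p53 lists medians of -0.12 and -0.045.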

How the data were processed

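RNA of 3 Sox2 KO and 3 Sox2 overexpression samples was extracted with a column kit, and libraries were made with a low-input kit, per the labels' protocols. The authors deposited 1 table of whole-number counts per gene. The submitters' processing notes name kallisto 0.44.0 and mm10; how transcripts became whole gene counts, the annotation and the strand are not given in the sources used here. Of 55481 rows, 96 that name no mouse gene (at most 2.23e-05% of counts) were left out, and 55144 IDs had a symbol. Library totals were 31247976 to 38543221, and after TMM scaling of these totals 3 counts came to 0.0759 to 0.101 CPM. Log2 CPM correlated at 0.957 to 0.985 within groups and 0.808 to 0.885 between them, across genes.

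Counts were tested with edgeR 4.0.16 in R 4.3.3 (TMM, filterByExpr at 10 and 15 counts, quasi-likelihood test of all 6 libraries, Benjamini-Hochberg over 18504 genes, threshold 0.05), after a test on simulated data. Standard errors are the log2 fold change over the square root of F. Alternatives were other scalings, no filter, robust dispersion, a replicate block, DESeq2 1.42.0, summed Clca3 counts and leaving out each library. The members, the gene lists and the rule were chosen with earlier results of these data known. Named are the 3 list genes that rose and fell most, the neighbours and the 5 genes most like Clca3b; Ano1, Cdkn1a and Mdm2 were added for their known roles. The motif words and the repeat search were chosen after the sequences were seen. Sequences came from GENCODE M21 transcripts and RefSeq promoters (GRCm38.p6, some not reported here), and identities from MAFFT 7.526 alignments.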

Additional observations from a re-analysis of the deposited data

How the results depend on the processing

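The log2 fold changes of the 5 tested members did not change sign in any alternative run. Clca4a and Clca4b were fitted only in the run with no filter, and no fold is given for them. For the single genes the log2 fold change ranged over 5.87 to 7.33 for Clca3b, 2.25 to 3.60 for Clca2 and 0.56 to 2.23 for Clca1. It ranged over 0.61 to 2.32 for Clca3a1 and 0.035 to 2.61 for Clca3a2. The summed counts of Clca3a1, Clca3a2 and Clca3b gave 5.55. With 1 library left out the ranges were 5.88 to 7.33 for Clca3b, 3.07 to 3.60 for Clca2, 1.23 to 2.23 for Clca1, 0.61 to 2.32 for Clca3a1 and 0.035 to 2.61 for Clca3a2. Scaled to epithelial markers, the log2 fold change was 5.87 for Clca3b, 2.25 for Clca2, 0.90 for Clca3a1 and 0.56 for Clca1, and 370 genes were higher and 13946 lower, against 2519 and 3329 with TMM. On that scale 0 chloride channel genes were higher and 18 lower, and 0 p53 targets were higher and 15 lower. Of the squamous list 13 genes were higher and 5 lower (19 and 1 with TMM). Of the mucous list 5 were higher and 3 lower (6 and 2 with TMM). All 6 neighbours were lower. The log2 fold change changed sign for Lrrc8a (-0.29), Perp (-0.068), Phlda3 (-0.43), Sh3glb1 (-0.90), Hs2st1 (-0.94) and Odf2l (-0.77). DESeq2 called 5 chloride channel genes higher and 2 squamous genes lower, and 4 squamous genes were lower with no filter. Of the mucous list, 1 gene was lower with median-ratio or upper-quartile scaling, with robust dispersion and with the replicate block. With 1 library left out, 1446 to 2599 genes were higher in all (1446 without KO replicate 2, 1610 without KO replicate 3) and 2784 to 3256 lower, 3 to 6 mucous genes higher (3 without KO replicate 2) and 0 to 4 lower, 0 to 4 squamous genes lower, 1 to 3 p53 targets lower, and 0 to 1 neighbours higher. Selenof, near 0 at -0.066, changed sign without KO replicate 2 (0.0045), OE replicate 1 (0.067) or OE replicate 3 (0.051), with a range of -0.28 to 0.067, as did Znhit6 (-0.041) without KO replicate 3 (0.018) or OE replicate 2 (0.016), with a range of -0.11 to 0.018. The cause of these changes was not tested.

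Pairing of the samples by replicate number was not settled. Deviations of same-numbered samples correlated at 0.0508, 0.0223 and -0.0399 across genes. Other pairs lay between -0.0672 (KO replicate 2 with OE replicate 1) and 0.0503 (KO replicate 2 with OE replicate 3). With the replicate block 2416 genes were higher and 3177 lower, and the log2 fold changes were 6.64 for Clca3b, 3.27 for Clca2, 1.81 for Clca1, 1.39 for Clca3a1 and 1.21 for Clca3a2. Depth limits Clca4a, Clca4b and Clca1, whose counts are few.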
